A study of Mus musculus with 4 samples.

Results

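The cells described here are CD8 T cells of mouse mammary tumours that carried RNA of effector genes. They were chosen by a gate on raw counts of unique molecular identifiers (UMIs, each standing for 1 captured RNA molecule). A member had 500 or more UMIs from 250 or more genes, no more than 10% of them mitochondrial, with at least 2 UMIs of Cd3d, Cd3e and Cd3g together, at least 1 of Cd8a and Cd8b1, and none of Cd4. It also had at least 2 UMIs of Ccl5, Nkg7, Cxcr3 and Gzmk together, and at most 2 each of the C1q genes (macrophages) and of Cd79a, Cd79b and Ms4a1 (B cells). The gate held 1016 of 15319 called barcodes, 577 of 7444 in PyMT and 439 of 7875 in Jagged1/PyMT. These genes chose the members, so their levels are given as a description only.

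Immune cells had been sorted by FACS from digested mammary tumours of 12-week-old FVB/NJ mice and profiled by 3' single-cell RNA sequencing. The PyMT genotype is named for the middle T antigen of mouse polyoma virus, which causes mammary tumours. Jagged1/PyMT mice carry PyMT too, and their label adds Jagged1, which binds Notch receptors on neighbouring cells. Nothing in the labels gives the promoter of either gene, the cells that express them, or whether the Jagged1 allele is a transgene. The labels list 2 samples for each genotype, but both are pooled in 1 matrix with no link from barcode to sample. Each genotype was therefore 1 library, no test could be run, the spread between mice is unknown, and every interval in brackets is a 95% interval of counting error only.

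CD8 T cells kill target cells by releasing perforin, which opens membranes, and granzymes, which are proteases that start cell death, or through Fas ligand on their surface. Memory CD8 T cells keep effector genes such as Ccl5 and Nkg7 ready, and those that recirculate keep the lymph node homing receptor CCR7, while resident ones carry CD103 (Itgae) or CXCR6. Inhibitory receptors such as PD-1 (Pdcd1), CTLA-4, LAG-3, TIM-3 (Havcr2) and TIGIT restrain activated T cells, and their joint, lasting expression marks exhausted cells in tumours.

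Depth was alike in the members of both libraries. The matrices held 36012036 UMIs (PyMT) and 55506773 UMIs (Jagged1/PyMT). Members held a median of 5503 and 5450 UMIs and of 1521 and 1462 genes, with 3.12% and 2.42% mitochondrial UMIs, and 3522373 and 2709282 UMIs in all. The libraries shared 70 called barcodes, where 79.5 would be shared if barcodes were drawn independently from the list, and no member was among them. RNA of other cells was not alike. Levels are given as CPM, the UMIs of a gene or list divided by all UMIs of the cells and scaled in the usual way. Over members, the summed level of 12 macrophage marker genes was 169 CPM in the PyMT library and 1228 CPM in the other, with at least 1 UMI in 40.2% and 65.8% of members. Adgre1 was at 0 in PyMT only. The B cell list came to 351 and 1502 CPM, and its higher genes were the antigen presentation genes Cd74, H2-Aa and H2-Ab1. NK cell markers summed to 292 and 768 CPM and gamma-delta T cell markers to 25.3 and 50.9 CPM. Neutrophil markers came to 110 and 152 CPM, and epithelial markers to 16.2 and 16.6 CPM. The summed level of CD4 and regulatory T cell markers was 91.1 and 90.1 CPM, with Foxp3 at 0 in PyMT. The part of this RNA in the results below was not tested, except where a value without such members is given.

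The 4 markers of the label were not equally present. Cd8a was found in 74.9% of PyMT and 82.0% of Jagged1/PyMT members and Cd8b1 in 89.8% and 89.5%. Nkg7, a cytotoxic granule protein (chromosome 7, 43437073 to 43438249, plus strand, GRCm38), was found in 96.7% and 99.5%. Ccl5, a chemokine that memory CD8 T cells store as RNA, was found in only 31.9% and 35.3%, and Ly6c2, a surface protein of memory CD8 T cells, in 42.8% and 47.4%. Cxcr3 was present in 7.45% and 6.61%, and Gzmk had 0 UMIs in both whole matrices. Most members, 379 in PyMT (65.7%) and 274 in Jagged1/PyMT (62.4%), passed on Nkg7 alone. Ccr7, which naive and recirculating memory T cells carry, was present in 88.2% of PyMT and 83.4% of Jagged1/PyMT members. The data thus go against reading all members as effector cells, and they are called by the gate's rule.

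Effector RNA was found in a larger share of CD8 T cells in the Jagged1/PyMT library. Of barcodes that met every other term of the gate, 577 of 1350 (42.7%, interval 40.1 to 45.4, exact binomial) were members in PyMT and 439 of 748 (58.7%, interval 55.1 to 62.2) in Jagged1/PyMT. The intervals cover counting error of cells only, and as the gate's own genes set these shares, they describe 1 library of each genotype. The difference sat at both ends of the scale. Cells without an effector UMI were 35.7% of CD8 T cells in PyMT against 20.3% in Jagged1/PyMT, and those with at least 4 were 20.3% against 34.0%. Cells with 1, 2 or 3 effector UMIs took like shares in both. Of all called barcodes, however, members were 7.75% in PyMT and 5.57% in Jagged1/PyMT. When cells were thinned to 1000 UMIs before the gate was applied, the shares of CD8 T cells were 9.52% and 17.4%. As background, 2 or more effector UMIs were found in 0.293% and 0.316% of B cells (median 3490 and 3184 UMIs) and in 7.34% and 6.24% of macrophages (2978 and 7305.5 UMIs).

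**Figure D1:**
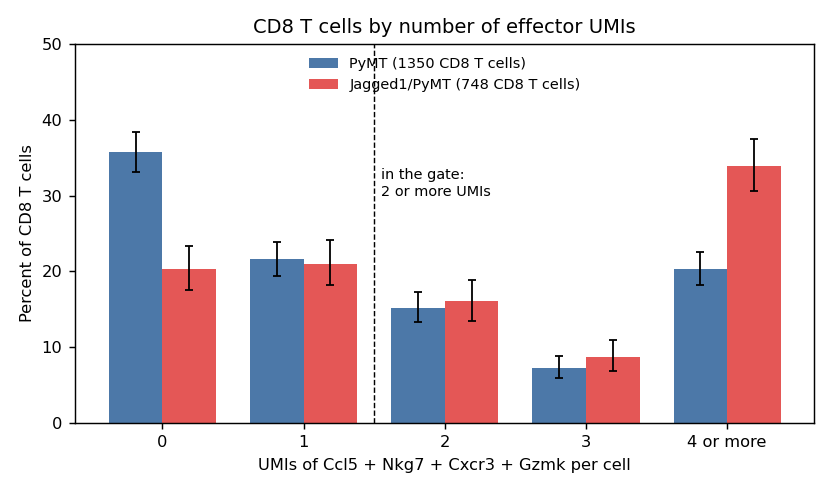
Percent of CD8 T cells (y axis) by the number of UMIs of Ccl5, Nkg7, Cxcr3 and Gzmk per cell (x axis) in each library; error bars are exact binomial 95% intervals, and the dashed line is the gate's threshold. The PyMT bar is higher at 0 UMIs (35.7% against 20.3%) and the Jagged1/PyMT bar at 4 or more (34.0% against 20.3%).

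Cells just inside and just outside the threshold looked alike. With 1 effector UMI, outside the gate, there were 291 PyMT and 157 Jagged1/PyMT cells, of which 95.2% and 91.1% held Ccr7 and 21.0% and 20.4% held Ly6c2. With 2, inside the gate, there were 205 and 120 cells, of which 95.1% and 90.8% held Ccr7 and 19.5% and 26.7% held Ly6c2. At 4 or more, Ly6c2 was present in 63.5% and 58.3% of cells and Ccl5 in 59.5% and 55.9%.

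Members were split into 4 sets by rules chosen after the data were seen, so the sets describe the gate's makeup. The macrophage-RNA set had at least 3 UMIs of 10 macrophage genes: 17 PyMT members (2.95%, interval 1.73 to 4.68) and 41 Jagged1/PyMT members (9.34%, interval 6.79 to 12.5). The Fcer1g set had at least 3 UMIs of Fcer1g, the signalling chain shared by Fc receptors and several NK receptors, which in T cells is known from innate-like cells: 22 members (3.81%, interval 2.40 to 5.72) and 33 members (7.52%, interval 5.23 to 10.4). Fcer1g lies on chromosome 1 at 171229572 to 171234365, minus strand. The Ccl5 set held the other members with Ccl5: 167 (28.9%) and 128 (29.2%). The Ccl5-negative set held the rest: 371 (64.3%) and 237 (54.0%). Of all CD8 T cells, the Ccl5 set made up 12.4% in PyMT and 17.1% in Jagged1/PyMT, the Ccl5-negative set 27.5% and 31.7%, and the Fcer1g set 1.63% and 4.41%.

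The sets carried different programmes. In the Ccl5-negative set, Ccr7 was present in 96.0% of PyMT and 92.8% of Jagged1/PyMT cells, Ly6c2 in 26.4% and 35.9%, and Gzmm in 1.62% and 1.27%. The Ccl5 set combined homing and effector genes: Ccr7 in 82.0% and 85.9%, Ly6c2 in 85.6% and 81.2%, Il7r in 74.9% and 64.8%, and Gzmm in 30.5% and 18.8%. The Fcer1g set had almost none of these. Ccr7 was found in 3 of 22 and 4 of 33 cells, Ly6c2 in 0 and 1, Il7r in 2 and 0, and Gzmm in none, which allows up to 3 counts in each.

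Cells of the Fcer1g set held Cd8a (22 of 22 and 32 of 33) but seldom Cd8b1 (3 and 7), whereas 76.5% to 96.1% of the other sets held Cd8b1. They held the T cell receptor constant genes Trac (16 and 23) and Trbc2 (18 and 31), and seldom Trdc of gamma-delta T cells (3 and 5) or the NK receptor genes Ncr1 (4 and 6) and Klrb1c (1 and 0). Itgae, which binds E-cadherin on epithelium, was present in 21 and 29 cells, the dendritic cell chemoattractant Xcl1 in 20 and 29, Cd160 in 18 and 25, Cd244 in 15 and 21, and Gzmb in 15 and 21. The co-stimulatory gene Cd28 (2 and 2) and the inhibitory Cd5 (1 and 1), common on conventional T cells, were nearly absent. No cell type name is given to them, because their markers were not among those fixed for the gate. Their median depth, 8556 and 11614 UMIs, was higher than that of the Ccl5 set (6448 and 5973) and the Ccl5-negative set (5062 and 4694). The Fcer1g set was not alike in both libraries in antigen presentation RNA. The 4 measured genes of the B cell list summed to 190 CPM in its PyMT cells and 2192 CPM in its Jagged1/PyMT cells. Cd74, H2-Aa and H2-Ab1 were over 1.5-fold higher there, where 11% of all genes were. The part of this RNA in the set's other values was not tested.

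**Figure D2:**
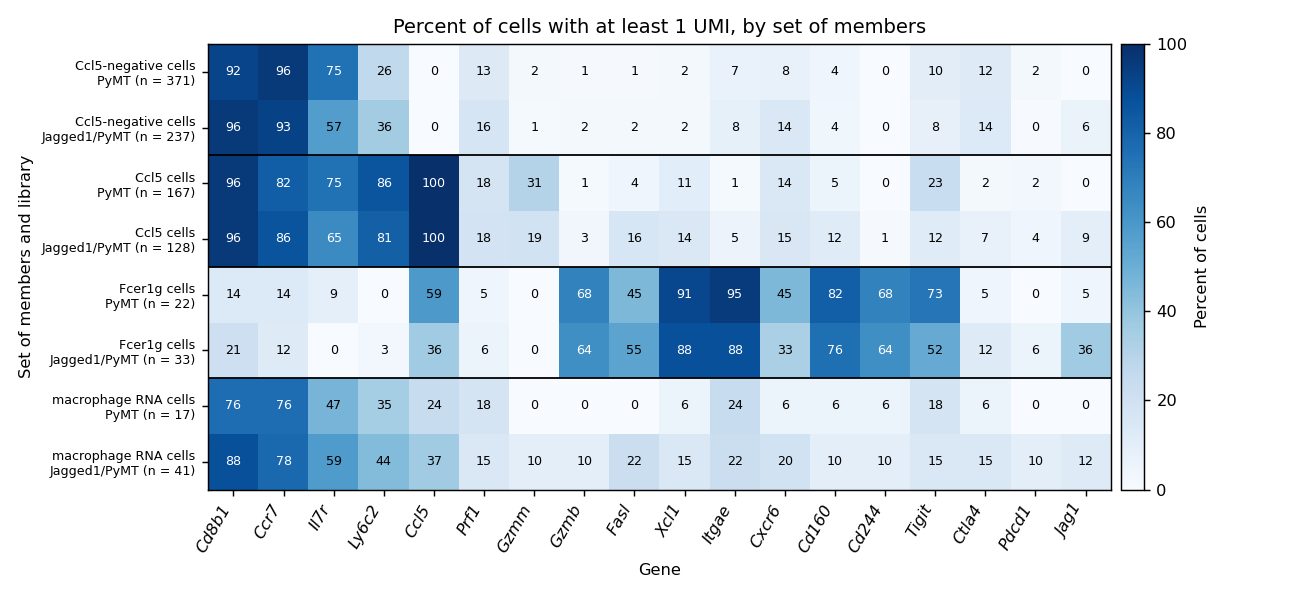
Percent of cells with at least 1 UMI of each gene (columns) in the 4 sets of members in each library (rows, with the number of cells); colour and printed whole numbers give the percent. The rows of the Fcer1g set stand apart with few Cd8b1, Ccr7 and Il7r cells and many Gzmb, Xcl1, Itgae and Cd160 cells in both libraries.

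Granzyme genes differed in both directions. Gzmb encodes granzyme B, which cleaves caspases in the target cell (chromosome 14, 56258838 to 56262260, minus strand, GRCm38), and Gzmc encodes granzyme C of the same cluster (chromosome 14, 56231441 to 56234656, minus strand). Their promoters are shown because the 2 genes are neighbours and were both higher in Jagged1/PyMT. Each window holds the 250 bases before the RefSeq start on the minus strand (GRCm38.p6), and capitals mark matches of the RUNX motif TGTGGT (on the other strand ACCACA) and of the AP-1 motif TGANTCA:
Gzmb, chr14:56262335-56262584: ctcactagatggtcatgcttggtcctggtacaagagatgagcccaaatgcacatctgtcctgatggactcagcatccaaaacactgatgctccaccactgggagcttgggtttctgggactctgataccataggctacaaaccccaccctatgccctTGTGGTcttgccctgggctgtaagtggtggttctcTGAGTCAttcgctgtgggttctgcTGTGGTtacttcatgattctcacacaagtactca
Gzmc, chr14:56234658-56234907: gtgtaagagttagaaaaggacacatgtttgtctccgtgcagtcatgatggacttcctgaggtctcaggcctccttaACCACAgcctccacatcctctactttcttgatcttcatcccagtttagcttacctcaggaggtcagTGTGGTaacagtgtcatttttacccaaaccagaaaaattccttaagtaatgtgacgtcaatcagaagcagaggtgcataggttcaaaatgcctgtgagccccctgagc
The Gzmb window had RUNX matches starting 93 and 34 bases before the start and an AP-1 match 58 bases before it. The Gzmc window had RUNX matches 174 (other strand) and 108 bases before the start and no AP-1 match. Neither held the RBPJ motif TGGGAA, through which Notch acts, or the T-box motif GGTGTG. Both strands were searched and no 2 matches overlapped. Of 32851 RefSeq promoter windows, 14.0% held the RUNX motif, 6.75% the AP-1 motif, 21.6% the RBPJ motif and 16.3% the T-box motif, so a match describes letters and is no evidence of binding.

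Gzmb UMIs summed to 394 over 20 PyMT members and 1584 over 34 Jagged1/PyMT members. That is 112 CPM against 585 CPM, a log2 ratio of Jagged1/PyMT over PyMT of 2.39 (interval 2.23 to 2.55). Among members holding it, PyMT cells had 1 to 64 UMIs with a median of 10.5, and Jagged1/PyMT cells 1 to 218 with a median of 23.5, so the ranges overlapped while the upper end was higher in Jagged1/PyMT. A summed CPM cannot tell more positive cells from more RNA per cell, so cell numbers are given beside it. Thinned to 1000 UMIs, 2.25% of PyMT members (interval 1.20 to 3.82) and 5.47% of Jagged1/PyMT members (3.53 to 8.03) held Gzmb, against 3.47% and 7.74% at full depth. In thinned B cells the share was 0% in both libraries, and in thinned macrophages 0% and 0.299%.

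Nearly all Gzmb RNA came from cells holding Fcer1g. Members with at least 3 Fcer1g UMIs carried 97.0% of Gzmb UMIs in PyMT and 98.1% in Jagged1/PyMT. The Fcer1g set alone held 382 UMIs in 15 of its 22 PyMT cells and 1114 UMIs in 21 of its 33 Jagged1/PyMT cells. Its share of Gzmb-positive cells was thus 68.2% and 63.6%, and its Gzmb level was 1652 and 2797 CPM, with a log2 ratio of 0.76 (0.59 to 0.93). In the Ccl5 set, Gzmb was found in 2 of 167 and 4 of 128 cells, with 9 and 25 UMIs.

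The 2 highest cells, with 218 and 216 Gzmb UMIs, lay in the Jagged1/PyMT macrophage-RNA set, which held 440 Gzmb UMIs in 4 cells against none in PyMT. Both had 0 UMIs of Lyz2 and Cd74, and most of their macrophage-gene UMIs were Fcgr3 (2 of 3 and 5 of 6). They held 48 and 18 Fcer1g UMIs and 79 and 93 UMIs of Cd7, a surface protein of T and NK cells.

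**Figure D3:**
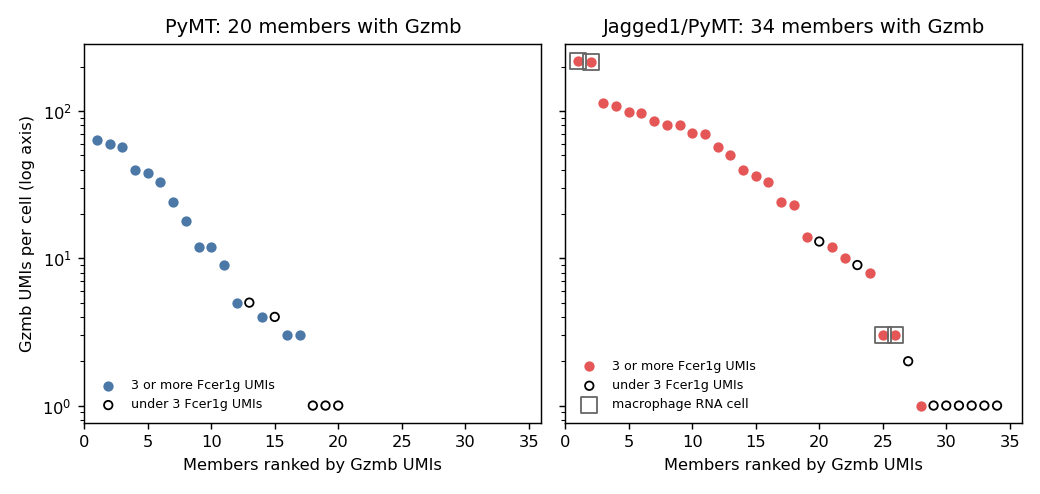
Gzmb UMIs per cell (y axis, log scale) for every member with at least 1 such UMI, ranked from the highest (x axis), in PyMT (left) and Jagged1/PyMT (right); filled points held at least 3 Fcer1g UMIs and squares mark the macrophage-RNA set. The highest PyMT cell had 64 UMIs and the highest Jagged1/PyMT cells 218 and 216, and open points lie mostly at the bottom.

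The size of the Gzmb difference rested on members above 8000 UMIs, most of which lay in the Fcer1g set. Of members holding Gzmb, 8 of 20 in PyMT and 22 of 34 in Jagged1/PyMT had over 8000 UMIs. In the Fcer1g set these were 8 of 15 and 17 of 21, so the cut removes deep cells and cells of this set together. Their separate parts were not tested. Without members above 8000 UMIs, the sums were 162 and 119 UMIs and the log2 ratio was 0.01. Among members with 0 UMIs of 11 macrophage genes, Gzmb had 279 and 685 UMIs and a log2 ratio of 2.41; this subset was chosen after the data were seen.

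The other granzymes rested on single cells. Gzmc had 20 UMIs in 5 PyMT members and 231 UMIs in 16 Jagged1/PyMT members, a log2 ratio of 3.91 (3.25 to 4.65), but 162 of the 231 came from 1 cell. Gzma, granzyme A (chromosome 13, 113093825 to 113100981, minus strand), had 165 UMIs in 11 PyMT members and 9 UMIs in 7 Jagged1/PyMT members, a log2 ratio of -3.82 (-4.97 to -2.86), and 110 of the 165 came from 1 cell. Gzmm, a granzyme of innate and memory-like lymphocytes, was spread more evenly. It had 135 UMIs in 57 PyMT members (38.3 CPM) and 66 UMIs in 31 Jagged1/PyMT members (24.4 CPM), a log2 ratio of -0.65 (-1.10 to -0.22), and was lower in the Ccl5 set too (108 and 67.4 CPM).

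Prf1, perforin, had 103 UMIs in 82 PyMT members (29.2 CPM) and 78 UMIs in 70 Jagged1/PyMT members (28.8 CPM), a log2 ratio of -0.02 (-0.47 to 0.42), and only 1 of 22 and 2 of 33 cells of the Fcer1g set held it. Fasl, Fas ligand, had 30 UMIs in 21 PyMT members and 87 UMIs in 51 Jagged1/PyMT members, or 8.52 and 32.1 CPM, a log2 ratio of 1.91 (1.30 to 2.56). This difference was also seen in the Ccl5 set, where 7 of 167 and 20 of 128 cells held Fasl (log2 ratio 2.77, 1.57 to 4.18), and in the Fcer1g set Fasl had 77.9 and 82.9 CPM (0.09, -0.78 to 1.01). Whether the sets differ was not tested. Ifng had 13 UMIs in PyMT and 8 in Jagged1/PyMT, under the 50 UMIs asked of a gene, and Tnf had 34 and 42 (log2 ratio 0.68, -0.00 to 1.38).

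The chemokines of the list were higher. Ccl4, a chemokine of activated T cells and macrophages, had 69 UMIs in PyMT and 223 in Jagged1/PyMT (log2 ratio 2.07, 1.68 to 2.48). In the macrophage-RNA set it had 8 and 123 UMIs, and in the Ccl5 set 32 and 82. Its neighbour Ccl3 had 1 UMI in PyMT and 36 UMIs in 16 Jagged1/PyMT members. Xcl1 had 390 and 742 UMIs, 111 and 274 CPM, and a log2 ratio of 1.31 (1.13 to 1.49). Without members holding 3 Fcer1g UMIs, Xcl1 was lower in Jagged1/PyMT (127 and 56 UMIs, log2 ratio -0.56).

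**Figure D4:**
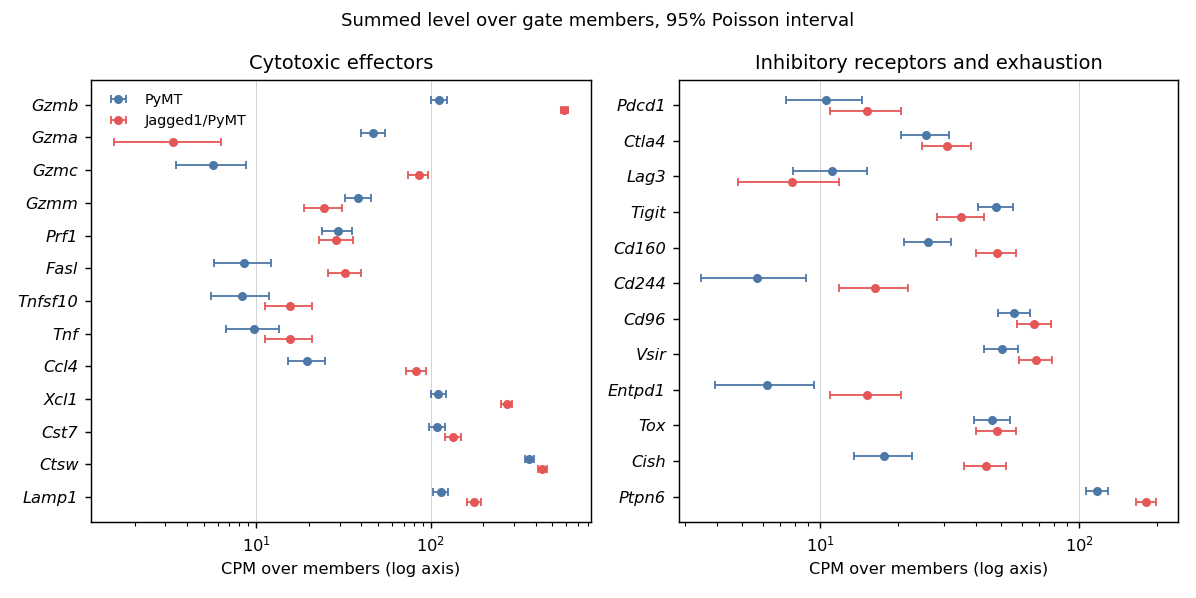
Level over members in CPM (x axis, log scale) of 13 cytotoxic genes (left) and 12 inhibitory genes (right), with exact Poisson 95% intervals, in PyMT (blue) and Jagged1/PyMT (red). Gzmb (112 and 585 CPM) and Fasl (8.52 and 32.1 CPM) are higher in Jagged1/PyMT, Gzma and Gzmm lower, and the intervals of Prf1, Pdcd1 and Ctla4 overlap.

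Over the cytotoxic list, 8 of 17 measured genes outside the gate were over 1.5-fold higher in Jagged1/PyMT and 2 were over 1.5-fold lower. Over all 7058 genes with at least 50 UMIs, 648 (9.18%) were that much higher and 445 (6.3%) lower. With ribosomal protein and mitochondrial genes left out of the total, these counts were 511 and 578. The list's median log2 ratio was 0.44, against 0.03 over all genes. Beside Gzmb, Gzmc, Fasl, Ccl4, Xcl1 and Tnf, the higher genes were Tnfsf10, the death ligand TRAIL (8.23 and 15.5 CPM), and Lamp1, a protein of the granule membrane (114 and 177 CPM). The median was 0.01 without members above 8000 UMIs, where 3 of 14 genes were higher and 2 lower (5.12% and 7.83% of all genes). It was -0.06 in cells thinned before the gate was applied, where 52 PyMT and 67 Jagged1/PyMT members were left. With free RNA subtracted (an estimated 2.18% of the members' UMIs in PyMT and 9.39% in Jagged1/PyMT) the median was 0.28 with 5 genes higher, and at 4 or more effector UMIs it was 0.17 with 6 higher. Within the Ccl5 set it was 0.11, with 1 gene higher (Ccl4) and 1 lower (Gzmm) of 10, where 7.53% and 9.07% of all genes were. Within the Fcer1g set it was -0.09, with 2 higher (Gzmb and Gzmc) and 3 lower (Cst7, Gzma and Serpinb6b) of 11, where 11% and 13.7% were. Within the macrophage-RNA set it was 1.65, with 4 higher (Ccl4, Gzmb, Lamp1 and Xcl1) and 0 lower of 6, where 19.4% and 9% were. Lamp1 was counted as higher in no other set.

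Inhibitory receptors were sparse in members of both libraries. Pdcd1 (chromosome 1, 94038305 to 94052553, minus strand) had 37 UMIs in 12 PyMT members and 41 UMIs in 12 Jagged1/PyMT members, or 10.5 and 15.1 CPM, a log2 ratio of 0.53 (-0.15 to 1.21). These UMIs lay in different sets. The Ccl5-negative set held 29 Pdcd1 UMIs in 8 PyMT cells and 1 in Jagged1/PyMT, and the Fcer1g set held 0 and 12. Of the 37 PyMT UMIs, 17 came from 1 cell. Members with 0 UMIs of the C1q and B cell gate genes held 37 Pdcd1 UMIs in PyMT and 11 in Jagged1/PyMT. Ctla4 had 90 and 84 UMIs in 50 and 51 members, or 25.6 and 31.0 CPM (log2 ratio 0.28, -0.17 to 0.72). In the Ccl5 set Ctla4 had 3 UMIs in 3 PyMT cells and 31 UMIs in 9 Jagged1/PyMT cells.

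Lag3 passed 1.5-fold in neither direction, and Havcr2 had under 50 UMIs. Lag3 had 39 UMIs in 15 members and 21 UMIs in 16 members (log2 ratio -0.51, -1.35 to 0.29). Its UMIs were found in 2.60% and 3.64% of members, in 11.3% and 12.3% of macrophages and in 0% and 0.0789% of B cells. Pdcd1 UMIs were likewise found in 2.08% and 2.73% of members, 5.65% and 3.63% of macrophages and no B cell, and the part of macrophage RNA in these shares was not tested. Havcr2 had 4 UMIs in 1 member and 6 UMIs in 5 members.

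Tigit, a receptor that competes with CD226 for shared ligands, was found in more members than Pdcd1, Ctla4, Lag3 or Havcr2 and was lower in Jagged1/PyMT. It had 168 UMIs in 96 PyMT members and 95 UMIs in 57 Jagged1/PyMT members, or 47.7 and 35.1 CPM, a log2 ratio of -0.44 (-0.82 to -0.07). This was under 1.5-fold over all members and over it in the Fcer1g set (285 and 103 CPM; -1.47, -2.07 to -0.89) and the Ccl5 set (49.0 and 26.7 CPM; -0.88, -1.68 to -0.13). Thinned to 1000 UMIs, 4.33% and 2.96% of members held Tigit, with overlapping intervals, against 0% and 0.119% of macrophages.

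At least 1 of Pdcd1, Lag3, Havcr2, Tigit and Ctla4 was found in 26.0% of PyMT and 25.7% of Jagged1/PyMT members, and in 8.49% and 6.38% of thinned ones. Tox, a transcription factor of exhausted and memory cells, had 46.3 and 48.0 CPM (log2 ratio 0.05, -0.29 to 0.39). Over the inhibitory list the median log2 ratio was 0.16. Of its 20 measured genes, 5 were over 1.5-fold higher and 0 lower, where 9.18% and 6.3% of all genes were. The 5 were Cd160 (26.1 and 48.0 CPM), Cd244 (5.68 and 16.2 CPM), the ectonucleotidase gene Entpd1 (6.25 and 15.1 CPM), the cytokine signalling inhibitor Cish (17.6 and 43.6 CPM) and the phosphatase gene Ptpn6 (118 and 181 CPM). Without members holding at least 3 Fcer1g UMIs, 0 of 16 were higher and 0 lower, with a median of -0.03. Of all genes, 4.47% were higher and 7.72% lower there, so the counts without those members are near the background. In the Fcer1g set Cd160 (212 and 231 CPM) and Cd244 (82.2 and 92.9 CPM) had overlapping intervals.

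Genes of tissue residency were higher over all members, at 8 of 12 measured genes and none lower (9.18% and 6.3% over all genes), with a median log2 ratio of 0.67. Within the Fcer1g set 1 of 10 was higher and 4 were lower (median -0.48), where 11% and 13.7% of all genes were. In the Ccl5-negative set 2 of 9 were higher and 1 lower (0.20), where 4.02% and 8.58% were. In the Ccl5 set the counts were 3 of 8 and 1 (0.42), where 7.53% and 9.07% were. In the macrophage-RNA set they were 4 of 6 and 0 (0.84), where 19.4% and 9% were. Cxcr6, a receptor for CXCL16, had 90 UMIs in 63 PyMT members and 141 UMIs in 72 Jagged1/PyMT members (25.6 and 52.0 CPM; 1.03, 0.63 to 1.42). Cd69, an activation gene that also holds cells in tissue, had 143 and 272 CPM (0.92, 0.76 to 1.09), and was higher in each of the 4 sets, by a log2 ratio of 1.49 in the Ccl5 set, 0.50 in the Ccl5-negative set, 1.77 in the Fcer1g set and 0.99 in the macrophage-RNA set. Itgae had 204 UMIs in 53 members and 249 UMIs in 65 members (0.67, 0.39 to 0.94), but was lower in the Fcer1g set (649 and 449 CPM). Without members above 8000 UMIs Itgae had a log2 ratio of -0.04. Cxcr6 or Itgae was present in 17.7% and 25.7% of members, or 4.68% and 8.43% of thinned ones.

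Homing and memory genes were split, with 1 of 18 higher, 5 lower (9.18% and 6.3% over all genes) and a median log2 ratio of -0.00. The transcription factor genes Lef1 (327 and 202 CPM; -0.69, -0.84 to -0.54), Satb1 (-0.69) and Foxp1 (-0.65) of resting T cells, the costimulatory Cd27 (-0.71) and the egress receptor S1pr1 (-0.65) were lower. Il7r, the receptor chain for the survival cytokine IL-7, had 300 and 206 CPM (-0.55, -0.70 to -0.40). Tcf7, the factor of memory and stem-like cells, had 199 and 176 CPM (-0.18, -0.35 to -0.01), and Ly6c2 had 353 and 401 CPM (0.19, 0.07 to 0.30). Ltb, lymphotoxin beta, was the higher one (215 and 368 CPM). Within the Ccl5 set, where 7.53% of all genes were higher and 9.07% lower, 3 of 18 were higher and 2 lower. Within the Ccl5-negative set, where 4.02% of all genes were higher and 8.58% lower, 2 of 17 were higher and 0 lower.

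Signalling genes did not move as a block. None of 17 measured T cell receptor signalling genes outside the gate passed 1.5-fold in either direction, and their median log2 ratio was -0.08. Of 14 activation genes, 6 were higher and 1 lower. Over all genes the shares were 9.18% and 6.3%, which also apply to the lists that follow. Myc had 15.6 and 49.8 CPM (1.67, 1.21 to 2.15) and Tnfrsf9, the co-stimulatory receptor 4-1BB, 73.2 and 131 CPM (0.84, 0.60 to 1.08). Nr4a3, an orphan nuclear receptor induced by T cell receptor signals, was the lower one, at 112 and 42.1 CPM (-1.41, -1.72 to -1.11). It was lower in each of the 4 sets, from -0.94 in the Ccl5 set to -2.77 in the macrophage-RNA set. Of 18 effector transcription factors, 4 were higher and 1 lower: Tbx21 had 31 and 45 UMIs (0.92, 0.22 to 1.63) and Eomes 86 and 78 UMIs (0.24, -0.22 to 0.70). Of 16 cytokine receptors, 1 was higher (Il12rb2) and 2 were lower. Ifngr1, the binding chain of the interferon-gamma receptor (chromosome 10, 19591949 to 19610229, plus strand), had 836 and 538 CPM (-0.64, -0.73 to -0.54), with log2 ratios of -0.63 in the Ccl5 set, -0.49 in the Ccl5-negative set and -1.25 in the Fcer1g set. Il21r had 230 and 134 CPM.

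Interferon response genes were higher in members, at 9 of 21 and none lower (9.18% and 6.3% over all genes), with a median log2 ratio of 0.56. Rtp4 had 15 UMIs in 13 PyMT members and 61 UMIs in 45 Jagged1/PyMT members (2.40, 1.57 to 3.32). That was 4.26 and 22.5 CPM, beside 7.07 and 21.9 CPM in barcodes under 100 UMIs. Xaf1 had 22 and 54 UMIs (1.67, 0.93 to 2.46). Psmb9, a subunit of the immunoproteasome, had 76.7 and 137 CPM (0.83, 0.60 to 1.06). This difference was found in both large sets. In the Ccl5 set 7 of 13 were higher and 2 lower (median 0.68), where 7.53% and 9.07% of all genes were. In the Ccl5-negative set 6 of 16 were higher and 0 lower (0.47), where 4.02% and 8.58% were. In the Fcer1g set 0 of 8 were higher and 3 lower (-0.27), where 11% and 13.7% were. In the macrophage-RNA set 1 of 6 was higher and 2 were lower (-0.21), where 19.4% and 9% were. Among members with 0 UMIs of 11 macrophage genes the median was 0.60. In CD8 T cells without effector UMIs, 1 of 16 was higher and 2 were lower (0.34), where 6.94% and 10.1% of all genes were; whether members differ from those cells was not tested.

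**Figure D5:**
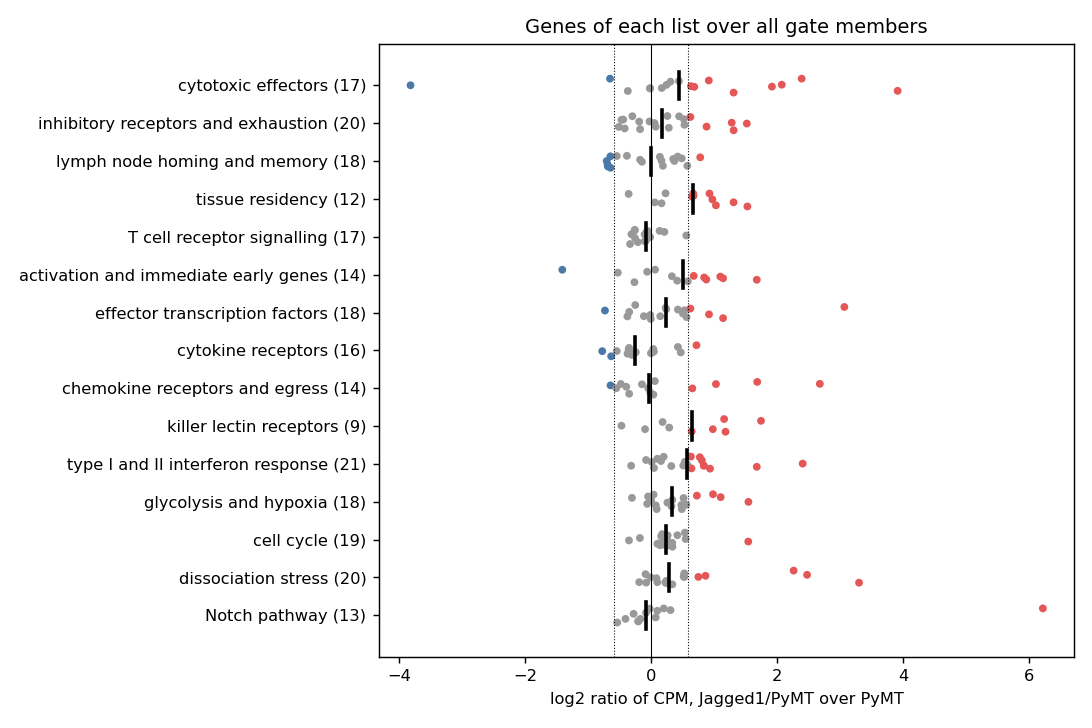
Log2 ratio of CPM, Jagged1/PyMT over PyMT (x axis), of each measured gene outside the gate over all members, by list (rows, with the number of genes); black bars are list medians, dotted lines mark 1.5-fold, and red and blue points lie beyond it. Medians are 0.67 for tissue residency and 0.56 for interferon response, against -0.08 for T cell receptor signalling.

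Jag1 itself was found in 1 of 577 PyMT members (1 UMI) and in 44 of 439 Jagged1/PyMT members (57 UMIs), a log2 ratio of 6.21 with an interval of 3.68 to 11.54. Jag1 lies on chromosome 2 at 137081456 to 137116644, minus strand. In the Fcer1g set 1 of 22 and 12 of 33 cells held it, in the Ccl5 set 0 of 167 and 12 of 128, and in the Ccl5-negative set 0 and 15. Thinned to 1000 UMIs, 1.59% of Jagged1/PyMT members held Jag1, against 0.561% of B cells and 0.716% of macrophages of that library. Of 13 measured Notch pathway genes, only Jag1 was over 1.5-fold higher and 0 were lower, where 9.18% and 6.3% of all genes were. These counts are near the shares over all genes. Maml2, a Notch coactivator gene that is not on that list, was lower (36.9 and 13.7 CPM, log2 ratio -1.43). Notch1 had 94 and 83 UMIs (26.7 and 30.6 CPM; 0.20, -0.24 to 0.64), and the Notch target genes Dtx1 and Nrarp had log2 ratios of 0.31 and -0.02.

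Across the whole table, 12 lower and 12 higher genes were named by ranking over all members, so their values within sets of the same members are a description. The lower genes included Maml2, given above, and Pmepa1, a TGF-beta-induced inhibitor of that pathway, with 400 UMIs in 248 PyMT members and 125 UMIs in 95 Jagged1/PyMT members (114 and 46.1 CPM; -1.30, -1.60 to -1.01). Ski, a repressor of SMAD transcription factors, had 78.4 and 34.3 CPM (-1.19, -1.55 to -0.85), and Ramp3, a partner of calcitonin-family receptors, 83.8 and 27.7 CPM (-1.60, -1.98 to -1.23). Jmy, an actin nucleator, had -1.20, Gcsh of glycine cleavage -1.41, Ddx43 -1.47 and Zfyve28 -1.64. Amd1 (-2.10) and Amd2 (-1.41), of polyamine synthesis, are near-identical copies whose reads may be split between them, so each value is uncertain. Gm42743 (-1.92) had 75 of its 103 PyMT UMIs in 1 cell.

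CD8 T cells without effector UMIs were not used by the ranking but come from the same libraries. There 11 of the 12 lower genes had at least 10 UMIs. Of these, 11 of 11 were lower, with a median log2 ratio of -0.99, and the interval excluded 0 for 6. Of all 4579 genes with at least 50 UMIs in those cells, 2298 were higher in Jagged1/PyMT by any amount. Pmepa1 had a log2 ratio of -1.86 in the Ccl5 set, -1.01 in the Ccl5-negative set, -1.07 in the Fcer1g set and -0.99 in CD8 T cells without effector UMIs.

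Of the 12 higher genes, 6 had at least 10 UMIs in CD8 T cells without effector UMIs, and 5 of 6 were higher there (median 0.65). The interval excluded 0 for 2 of the 6, and 2298 of 4579 genes were higher in those cells. Ccl6 and Ifitm1 rested on few cells: Ccl6 had 8 UMIs in 6 PyMT members and 494 UMIs in 10 Jagged1/PyMT members, and Ifitm1 21 UMIs in 5 and 417 UMIs in 12. Among members with 0 UMIs of 11 macrophage genes, Ccl6 had too few UMIs for a ratio and Ifitm1 had 8 and 86 UMIs. In Jagged1/PyMT, Ccl6 had 182 CPM over members and 164 CPM in barcodes under 100 UMIs. It was found in 31.6% of PyMT macrophages, and the part of macrophage RNA in these levels was not tested. Beside genes given above, the 12 higher genes held S100a6, a calcium-binding protein of activated cells (148 and 485 CPM; 1.71, 1.56 to 1.86), Plac8 (29.8 and 82.7 CPM), the chemokine receptor gene Ccr2 (11 and 54 UMIs) and Tnni1 (37 and 96 UMIs). S100a6 had a log2 ratio of 1.68 in the Ccl5 set and 0.22 in the Fcer1g set, where its level was 1449 and 1687 CPM.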

How the data were processed

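Immune cells sorted from tumours were profiled with a 10x Genomics 3' kit (8000 cells loaded, per the labels' protocols). The values are raw UMI counts, deposited by the authors as 1 matrix of genes by barcodes per genotype and made with Cell Ranger 3.0.2, per the submitters' processing notes. They are unnormalised and not filtered for cells: each lists 737280 barcodes and 31053 features, of which 30934 identifiers were found in GENCODE vM21 (GRCm38), used here for positions only. An older version of the kit has a barcode list of that size, so the version is not certain. The aligner is not given in the sources used here, nor is the genome build. Members and gene lists were chosen with earlier results of these data known, and the 4 sets of members and 4 of the alternatives were chosen after seeing the data.

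UMIs were summed over the members of a library and divided by their total (CPM), with exact Poisson 95% intervals. Log2 ratios have exact conditional binomial intervals and shares exact Clopper-Pearson intervals. UMIs of 1 cell are not independent, so intervals of summed UMIs are narrower than the spread between cells. With 1 library per genotype, no differential test was run, and a gene with at least 50 UMIs over both libraries was counted when past 1.5-fold. A library at 0 entered ratios at 3 counts. Genes named beside the lists were the 12 higher and 12 lower ranked first by the interval bound nearest 0, the farthest such bound leading. The ranking took only genes with UMIs in at least 10 members of the higher library. Their level there also had to be at or above that of barcodes under 100 UMIs. Gate, mitochondrial and receptor variable genes and Xist were left out. Scrublet in scanpy 1.11.5 marked 0.0403% and 0% of barcodes by its own threshold, so it had not worked. Doublets stayed in, and leaving out the top expected share (0.8% per 1000 barcodes) was an alternative. Thinning drew 1000 UMIs per cell. Computation used python 3.11.15, scipy 1.17.1 and numpy 2.4.6, and the ratio step was tested on simulated counts. Values of some listed genes are not reported here.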

Additional observations from a re-analysis of the deposited data

How the results depend on the processing

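No paired analysis was possible because the pooled matrices carry no replicate number, and for the same reason no replicate could be left out. The 15.9-point difference in the share of CD8 T cells that were members was 7.88 points in cells thinned to 1000 UMIs before gating. By construction it was 7.09 points for members with Ccl5 and 8.86 for members without it. The thinned cells of these alternatives held 52 PyMT and 67 Jagged1/PyMT members. They are another set than the thinned members of the results above, which were gated at full depth. The cytotoxic median log2 ratio of 0.44 was -0.058 in thinned cells, where only 3 genes were measured, 0.0050 without members above 8000 UMIs, 0.032 in members with Ccl5, 0.17 at 4 or more effector UMIs and 0.28 with free RNA subtracted. The inhibitory median lay between -0.03 and 0.29 over the 18 alternatives that gave it. Genes over 1.5-fold higher numbered 16 of 261 tested genes (6.13%) in thinned cells and 302 of 5900 (5.12%) without members above 8000 UMIs. They numbered 352 of 5149 (6.84%) at a minimum of 100 UMIs and 1160 of 9020 (12.9%) at 20 UMIs. In members with Ccl5 they numbered 420 of 4222 (9.95%), against 648 of 7058 (9.18%) over all members. Without members holding at least 3 Fcer1g UMIs they numbered 286 of 6401 (4.47%). Lower genes numbered 12 of 261 in thinned cells, 267 of 5149 at 100 UMIs and 744 of 9020 at 20 UMIs. Over all members they numbered 445 of 7058. Fewer genes were tested than over all members in each of these alternatives except the minimum of 20 UMIs, where more were. Other causes were not tested.

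Signs of some single results turned as follows. In cells thinned before gating (52 and 67 members) the B cell marker median was -1.72. Log2 ratios there were 0.049 for Tigit, 0.96 for Il7r, 0.049 for Tcf7, -0.46 for Ly6c2, -0.23 for Gzmc and 0.63 for Jmy, mostly on under 20 UMIs. Without members above 8000 UMIs they were -0.037 for Itgae, -1.96 for Ifitm1, -3.72 for Gzmc, -0.36 for Ccr2 and 0.28 for Gm42743, and the homing share was 1.81 points higher in Jagged1/PyMT; it was 4.65 points higher when called at 1000 UMIs. Ly6c2 was -0.067 at 4 effector UMIs, Gm42743 0.17 without cycling members, Gzmc -1.43 in members with Ccl5, and Gzma 0.47 in those without. Tcf7 was 0.010 in members with no macrophage UMI, and without members holding 3 Fcer1g UMIs Ccl6 was -0.60 and Xcl1 -0.56. Gzmb stayed positive in all 17 alternatives, from 0.01 to 3.60, as did the interferon median in its 19, from 0.26 to 0.60. Pmepa1 stayed negative in 17, from -2.03 to -0.82. Not all of these alternatives could change a sign. The minimum of 1000 UMIs kept the same 577 and 439 members, so its gene values could not differ. Centring on the median gene, or leaving ribosomal and mitochondrial genes out of the total, shifted every ratio alike. Among ratios under 1.5-fold, Pdcd1 (0.53) was -1.13 with 0 UMIs of the C1q and B cell gate genes, -3.01 without members above 8000 UMIs, -0.27 without members holding 3 Fcer1g UMIs, -0.48 in members without Ccl5 and 1.93 in those with it. Ctla4 was -0.33 in members without Ccl5. Prf1 was positive in 6 of 17 alternatives, from -0.44 to 0.96, and Lag3 in 4 of 17, from -1.11 to 0.63.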

Other observations

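Glycolysis genes were higher in 4 of 18 measured cases and lower in none, with a median log2 ratio of 0.33, where 9.18% of all genes were higher and 6.3% lower. In the macrophage-RNA set 6 of 9 were higher (median 0.96), where 19.4% of all genes were. In the Fcer1g set 4 of 9 were higher (0.49), where 11% were. In the Ccl5 set 2 of 12 were higher and 1 lower (0.14), where 7.53% and 9.07% were. In the Ccl5-negative set 0 of 15 were higher and 2 lower (0.04), where 4.02% and 8.58% were. Tpi1, triosephosphate isomerase, had 138 UMIs in 83 PyMT members and 309 UMIs in 117 Jagged1/PyMT members (39.2 and 114 CPM; 1.54, 1.25 to 1.84), while Gapdh had 237 and 243 CPM (0.04, -0.11 to 0.19). Of the cell cycle genes, 1 of 19 was higher over all members (Ccnb2) and none lower, with a median log2 ratio of 0.24. In the Ccl5-negative set 0 of 15 were higher and 7 lower, among them Birc5, Top2a and Mcm2 (median -0.48), where 8.58% of all genes were lower. In the Fcer1g set 3 of 12 were higher (Mcm2, Mcm3 and Mcm6), where 11% of all genes were. Mki67 was found in 10 and 14 members. Cycling cells were 2.77% of PyMT and 6.15% of Jagged1/PyMT members, but 1.04% and 1.14% of thinned ones.

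Of 20 genes that tissue dissociation induces, 5 were higher and none was lower, where 9.18% and 6.3% of all genes were. Hspa1a, a heat shock chaperone, had 9 UMIs in 8 PyMT members and 68 UMIs in 34 Jagged1/PyMT members, and Atf3, a stress-induced transcription factor, 30 and 128 UMIs. The most abundant genes of that list differed less: Hsp90ab1 had a log2 ratio of -0.09 and Junb 0.30. Killer lectin and related receptor genes were higher in 5 of 9 measured cases, where 9.18% of all genes were: Cd226, Slamf7, Klrb1a, Fcer1g and Tyrobp. Fcer1g, which defines 1 of the sets, and Tyrobp were each found in at least 94.4% of macrophages of either library, and the part of macrophage RNA in their levels was not tested. In the Ccl5 set 0 of 2 were higher, in the Ccl5-negative set 1 of 2, and in the Fcer1g set 1 of 4 was higher and 1 lower. Of all genes, 7.53%, 4.02% and 11% were higher in these sets, and 13.7% were lower in the Fcer1g set. Cd226, the activating receptor that shares ligands with TIGIT, had 56 UMIs in 47 PyMT members and 96 UMIs in 68 Jagged1/PyMT members (15.9 and 35.4 CPM; 1.16, 0.67 to 1.66). Slamf7 had 35 and 53 UMIs (0.98, 0.33 to 1.64), and Klrd1 217 and 156 UMIs (-0.10, -0.40 to 0.21). Klrb1f was held by 4 of 22 PyMT and 13 of 33 Jagged1/PyMT cells of the Fcer1g set.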
